A study of Homo sapiens with 3 samples.

Results

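The 51 genes described here are the protein-coding genes for collagen chains (44 genes with a symbol of the form COL, a number, A and a number) and 7 matrix proteoglycan genes (DCN, LUM, BGN, FMOD, VCAN, HSPG2 and ASPN), out of 58037 genes counted. The rule reads symbols and no measured value, but it was set with earlier results of these data known. The RNA came from A375 cells, a human melanoma line in long use, and was sequenced as 3 libraries, 1 per group. Control A375 cells were kept in serum-free DMEM, while YA-A375 and OA-A375 cells received the secretome (conditioned medium) of adipocytes differentiated from cells of young (YA) or old (OA) human donors. Per the series text cells were exposed for 24 h, although the protocol in the labels allows more. The secretome carries lipids, proteins and other secreted material together, so the agents in it cannot be told apart.

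Collagens are secreted proteins in which chains wind into a helical trimer, and the chains that pair determine the type. Fibrillar collagens form the tension-bearing fibrils of dermis, bone and cartilage, and basement membrane collagens form sheets under epithelia and around vessels. Other types decorate fibrils, build beaded filaments, anchor membranes or span the cell surface. Matrix proteoglycans are core proteins with glycosaminoglycan chains, among them small leucine-rich members that bind collagen fibrils (decorin, lumican, biglycan, fibromodulin), asporin, a related protein that lacks the chains, the large aggregating versican and the basement membrane proteoglycan perlecan. In skin, fibroblasts are the main source of most of them, and melanoma cells make some.

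Total counts per library were 21448195 (control), 21306558 (YA) and 18089008 (OA). Gene counts were divided by size factors to give normalised counts, and a gene was compared where its mean normalised count over the 3 libraries was at least 20, which held for 14413 genes. A gene was called higher or lower where its normalised counts, with 1 added, differed by at least 1.2-fold. Because each group had 1 library, no difference could be checked against replicates and none was tested. The 95% intervals given with ratios are exact Clopper-Pearson intervals from the reads of the libraries compared. They reflect counting error alone and say nothing of the spread between cultures. PCR copies were not told apart by molecular identifiers, so the intervals may be too narrow even for counting error. In bulk RNA, fewer cells of a type and less RNA per cell cannot be told apart.

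The melanocyte lineage markers were mixed. SOX10, a transcription factor of that lineage, was listed at 0 in all 3 libraries, and the pigment genes DCT, TYR and TYRP1 did not pass 6 counts. MITF, the pigment cell regulator, had 1221, 764 and 881 counts (control, YA and OA, the order of all count triples given here), and S100B had 843, 591 and 550. The summed counts of the 10 melanoma markers were 2583, 1912 and 1801. Of these markers 4 passed the minimum, with 1 called higher and 2 lower in YA than in control. In OA 0 were called higher and 2 lower than in control. Over all genes tested the shares were 17.4% higher and 16.4% lower in YA, and 21.1% and 21.5% in OA. Markers of fibroblasts or preadipocytes are given beside DCN. Of 12 adipocyte markers, the summed counts were 2390, 3382 and 2018, with 8 to 10 detected, LEP and CIDEA at 0 in every library and ADIPOQ at 1, 0 and 0. The adipocyte markers that passed the minimum, 6 in number, were all called higher in YA than in control (for example PLIN4, a lipid droplet coat protein, with 284, 579 and 321 counts). In OA 2 of these 6 were called higher and 1 lower than control. Endothelial markers summed to 245, 242 and 99 counts over 5 genes, and leukocyte markers to 155, 153 and 91 over 5.

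Of the 51 genes, 32 passed the minimum. A further 14 had 5 counts or fewer in each library, including COL1A2 (1, 1 and 2) and COL3A1 (0, 1 and 1), chains of the most abundant dermal collagens, and ASPN (0, 1 and 0). FMOD and COL25A1 were at 0 in all 3 libraries, where a count of 0 allows up to 3 counts. The other 5 lay under the minimum with a count above 5 in at least 1 library. These were COL4A3 (5, 14 and 9), COL11A1 (11, 13 and 7), COL24A1 (11, 14 and 9), COL14A1 (9, 5 and 3) and COL21A1 (16, 29 and 6). DCN, COL4A6 and COL8A2 passed only through their highest library, which was YA for each, so counts of genes called higher in YA rest in part on them. COL18A1 and HSPG2 share 16.4% and 11.7% of their exon bases with another gene, so part of their counts may depend on how shared reads were assigned.

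Collagen and proteoglycan transcripts took 0.298% of the control library (95% Wilson interval 0.296 to 0.300), 0.326% of the YA library (0.323 to 0.328) and 0.334% of the OA library (0.331 to 0.337). A few genes carried most of these counts, which are not corrected for length. COL4A2 alone held 27.1%, 27.8% and 28.3% of the counts of the 51 genes, and COL4A2 with COL4A1, COL5A2, COL6A1, COL9A3 and HSPG2 held 78.6%, 79.7% and 83.3%. Per length, on the RPKM scale (counts per kb of mRNA, scaled to the library total), COL9A3 (123, 137 and 168 in control, YA and OA) and COL4A2 (124, 139 and 146) led, followed by COL6A1 (74.7, 91.3 and 74.9), COL4A1 (57.0, 56.3 and 70.2) and COL5A2 (50.3, 47.3 and 49.2). The level of DCN on the same scale was 0.0847, 0.905 and 0.185, so its changes concern a scarce transcript.

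**Figure D1:**
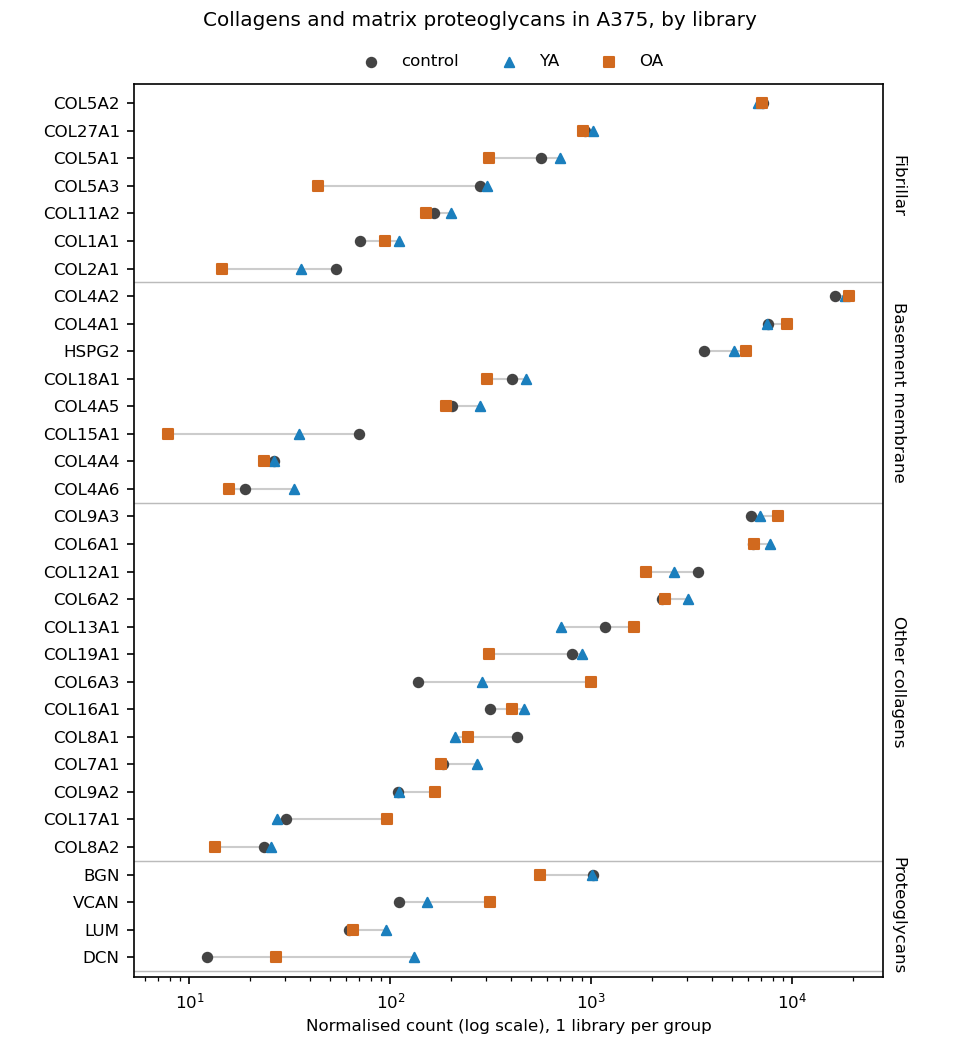
Normalised count on a log axis of the 32 collagen and proteoglycan genes that passed the minimum, in 4 classes, with 1 point for each of the 3 libraries. DCN is far higher in YA than in the other libraries, COL6A3 and COL17A1 are highest in OA, and COL5A3 and COL15A1 are lowest in OA.

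In YA-A375, 14 of the 32 genes were called higher than control (43.8%, against 17.4% of all genes tested) and 5 were called lower (15.6%, against 16.4%). DCN and COL6A3 stood at the top and COL8A1 and COL15A1 at the bottom. The 14 include DCN and COL4A6, which passed the minimum only through the YA library. The whole counting interval lay beyond 1.2-fold for 6 higher genes (18.8%, against 6.03% of all genes tested) and for 4 lower genes (12.5%, against 4.44%). In OA-A375, 11 were called higher (34.4%, against 21.1%) and 10 lower (31.2%, against 21.5%), led by COL6A3 and by COL15A1 and COL5A3 respectively. By the interval rule these were 7 higher (21.9%, against 9.04% of all genes) and 8 lower (25%, against 9.08%). The median log2 ratio over the 32 genes was 0.16 in YA and -0.03 in OA against control, beside -0.02 and 0.01 over all genes tested. Both comparisons use the same control library.

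Set directly against each other, YA was called higher than OA for 17 of the 32 genes (53.1%, against 23.0% of all genes tested) and lower for 7 (21.9%, against 21.5%). By the interval rule the counts were 12 higher (37.5%, against 10.0% of all genes) and 5 lower (15.6%, against 9.03%). The median log2 ratio was 0.33, beside -0.01 over all genes tested. The genes higher in YA included COL5A3, DCN, COL15A1, COL19A1, COL2A1 and COL5A1, and those lower included COL6A3, COL17A1, COL13A1 and VCAN. DCN, COL4A6 and COL8A2, which passed the minimum only through the YA library, are among the 17.

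**Figure D2:**
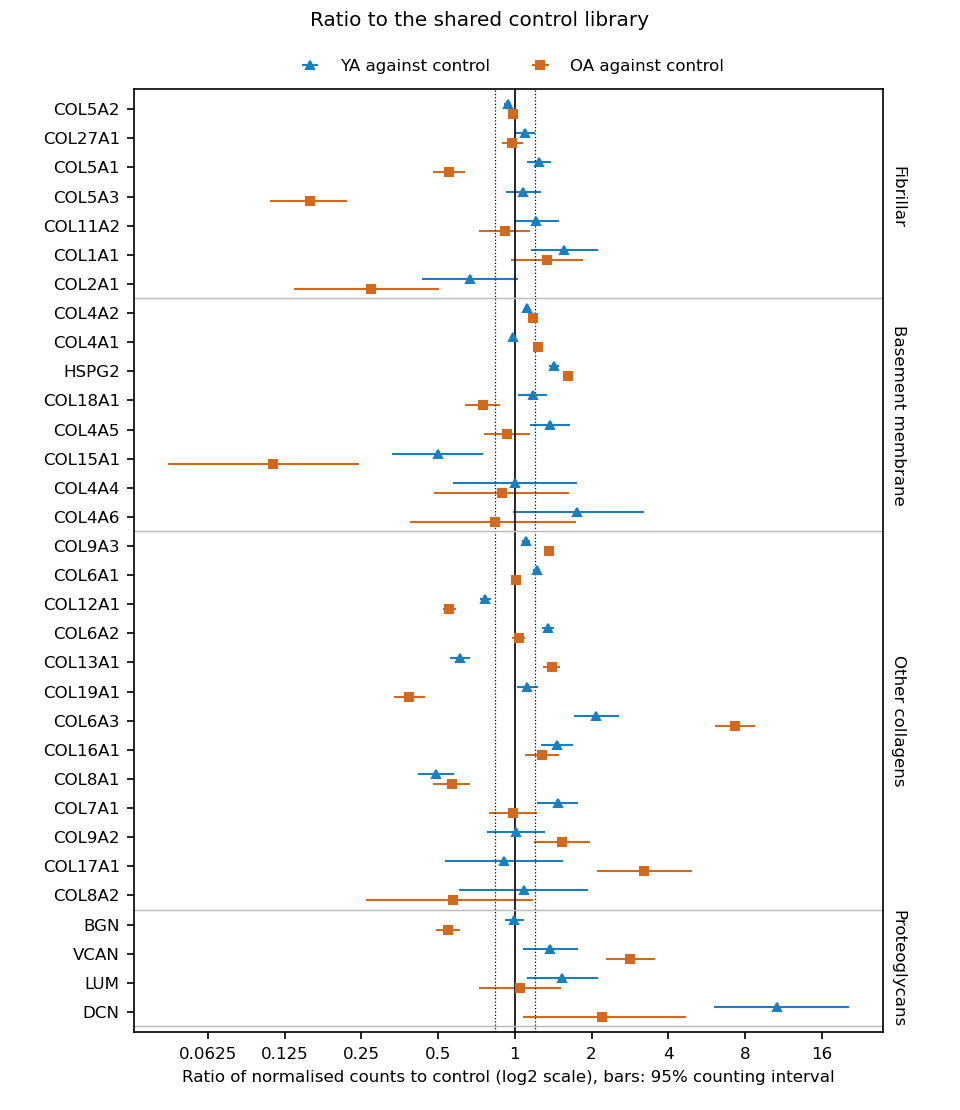
Ratio of normalised counts to the shared control library, on a log2 axis, for the same 32 genes, with bars for the 95% counting interval and dotted lines at 1.2-fold in either direction. The YA point lies to the right of the OA point for most fibrillar and basement membrane genes, and COL6A3 in OA (7.28) and DCN in YA (10.6) reach farthest to the right.

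Among the small leucine-rich proteoglycans, decorin, which binds collagen fibrils and several growth factors, changed most. DCN (minus strand, chr12:91140484-91183123, GRCh38) had 13, 138 and 24 counts in the control, YA and OA libraries. YA was 10.6 times control (interval 6.02 to 20.5), OA was 2.20 times control (1.08 to 4.70) and YA was 4.84 times OA (3.12 to 7.81). The YA library thus stood apart from the other libraries. Decorin is a fibroblast product in skin. Of the 14 fibroblast or preadipocyte markers, 10, 9 and 10 were detected, with summed counts of 3900, 2481 and 3339, lowest in YA. PRRX1 (3154, 1728 and 2763), PDGFRB (515, 568 and 334), PDGFRA (76, 20 and 51), TWIST2 (116, 122 and 139) and CFD (28, 35 and 40) passed the minimum, and of these CFD was called higher in YA than in control and PRRX1 and PDGFRA lower. The other 9 had 5 counts or fewer in each library, with DPT, SFRP2 and CXCL12 at 0 in all. The adipocyte markers that passed the minimum were higher in YA than in control, as given above, and the part of these markers in the DCN value was not tested.

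Lumican, which helps to space collagen fibrils, had 66, 101 and 58 counts. LUM in YA was 1.53 times control (1.11 to 2.13) and 1.47 times OA. DCN and LUM are neighbours on chromosome 12. Biglycan, the most abundant of this group, differed in OA. BGN had 1081, 1071 and 495 counts, which put OA at 0.545 of control (0.489 to 0.607) and YA at 1.82 times OA (1.64 to 2.03), with YA and control nearly equal. Per length, the ratio of DCN to BGN was 0.0040, 0.0433 and 0.0163, so biglycan stayed the more abundant transcript in each library. The mRNA lengths used were 7156 bases for DCN and 2402 for BGN, and a shorter DCN length would raise its ratio. The ratio of LUM to BGN per length was 0.0488, 0.0753 and 0.0936.

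Versican, a large hyaluronan-binding proteoglycan, had 117, 161 and 279 counts. VCAN in OA was 2.84 times control (2.28 to 3.56), YA was 1.38 times control (1.08 to 1.77), and YA was 0.486 of OA (0.398 to 0.592). Of the 6 proteoglycan genes other than perlecan, 4 passed the minimum. In YA 3 of these were called higher than control and 0 lower, and in OA 2 were higher and 1 was lower. YA was called higher than OA for 3 and lower for 1. Their median log2 ratio was 0.54 in YA and 0.57 in OA against control, and 0.70 in YA against OA. DCN, which passed the minimum only through the YA library, is part of these counts and medians. Over all genes tested, 17.4%, 21.1% and 23.0% were called higher and 16.4%, 21.5% and 21.5% lower in the same comparisons.

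Basement membrane genes were led, per length, by collagen IV. COL4A1 and COL4A2, whose chains pair in the most widespread collagen IV network, had 8085, 7933 and 8401 counts and 17301, 19297 and 17110 counts. COL4A1 in OA was 1.24 times control (upper bound 1.28, with the whole interval beyond 1.2-fold) and YA was 0.795 of OA (0.771 to 0.820), while neither library passed 1.2-fold for COL4A2 against control. The paired genes lie head to head on chromosome 13, with 126 bases between their RefSeq starts. Per length, the ratio of COL4A1 to COL4A2 was 0.459 (0.447 to 0.471), 0.404 (0.393 to 0.414) and 0.482 (0.469 to 0.495), with the YA interval below the others.

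The scarcer collagen IV chains, which serve in kidney, eye and other specialised membranes, had far fewer counts. COL4A5 had 214, 294 and 168 counts and COL4A6 had 20, 35 and 14. Both were called higher in YA than in control, at 1.38 times (1.15 to 1.65) and 1.76 times (0.986 to 3.21), the latter with an interval that includes 1. COL4A5 and COL4A6 also lie head to head, on chromosome X, with 379 bases between the nearest RefSeq starts. COL4A4 had 28, 28 and 21 counts and was called in neither library against control.

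Perlecan, which ties collagen IV and laminin sheets together, was called higher in both secretomes. HSPG2 had 3844, 5459 and 5242 counts, which was 1.42 times control in YA (1.37 to 1.48) and 1.62 times in OA (1.56 to 1.69). The multiplexin COL15A1 went the other way, with 74, 37 and 7 counts. COL15A1 was 0.501 of control in YA (0.328 to 0.754), 0.113 in OA (0.044 to 0.244), and YA was 4.45 times OA (1.96 to 11.8), so the 3 libraries were ordered control, YA, OA. Its relative COL18A1, the source of endostatin, had 428, 501 and 269 counts and was 0.749 of control in OA (0.640 to 0.874). Across the 8 basement membrane genes of 9 that passed the minimum, YA had 3 higher and 1 lower than control, OA had 2 higher and 2 lower than control, and YA had 4 higher and 1 lower than OA. Their median log2 ratios in these comparisons were 0.20, -0.13 and 0.36. COL4A6, which passed the minimum only through the YA library, is among the genes called higher in YA than in control and than in OA. All genes tested were called higher in 17.4%, 21.1% and 23.0% and lower in 16.4%, 21.5% and 21.5% of cases. The OA counts of this class were near those shares.

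Fibrillar collagens were mostly of the minor types. COL5A2, a chain of the collagen V that nucleates fibrils, had 7635, 7134 and 6299 counts and the highest level per length of the class. Its ratio to control was 0.937 in YA (0.907 to 0.968) with OA near 1. The partner chains were not as steady. COL5A1 had 593, 737 and 275 counts, was 1.25 times control in YA (1.12 to 1.39) and 0.552 of control in OA (0.477 to 0.638), and was thus the 1 gene of the 32 called higher in YA and lower in OA against control. COL5A3 had 296, 319 and 39 counts, 0.157 of control in OA (0.109 to 0.220), and YA was 6.89 times OA (4.93 to 9.87). Per length, COL5A1 stood to COL5A2 at 0.0649, 0.0864 and 0.0365, and COL5A3 to COL5A2 at 0.0445, 0.0513 and 0.0071.

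COL1A1, the main chain of collagen I, had 75, 117 and 84 counts, and was 1.56 times control in YA (1.16 to 2.12) and 1.33 times in OA (0.966 to 1.85). Its usual partner in skin, COL1A2, was at 1, 1 and 2 counts. COL2A1, the cartilage collagen, had 57, 38 and 13 counts, with OA at 0.272 of control (0.136 to 0.502) and YA at 2.46 times OA (1.28 to 5.04). COL11A2 had 175, 212 and 134 counts and COL27A1 had 990, 1082 and 813. Of the 11 fibrillar genes, 7 passed the minimum, and 3 were higher and 1 lower in YA, 1 higher and 3 lower in OA, and 4 higher and 0 lower in YA against OA. The median log2 ratio of these 7 was 0.13 in YA and -0.13 in OA against control, and 0.41 in YA against OA. Shares of all genes tested called higher were 17.4%, 21.1% and 23.0%, and shares called lower were 16.4%, 21.5% and 21.5%.

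Windows of 250 bases before the RefSeq start are shown for 5 of the called genes whose window holds no annotated exon, so that the upstream letters of genes moving in different ways can be set side by side. Capitals mark matches, on either strand, to the TATA box letters TATAAA, the CCAAT box letters CCAAT, the GC box letters GGGCGG and the AP-1 letters TGANTCA, with matches of 1 motif allowed to overlap. The sequences are from RefSeq on GRCh38.p14 and are written 5' to 3' on the strand of the gene. They are the windows of COL5A3 (low in OA, minus strand, chr19:10010505-10010754), COL12A1 (low in both, minus strand, chr6:75206054-75206303), HSPG2 (high in both, minus strand, chr1:21937311-21937560), COL7A1 (high in YA, minus strand, chr3:48595330-48595579) and COL4A5 (high in YA, plus strand, chrX:108439588-108439837).
COL5A3: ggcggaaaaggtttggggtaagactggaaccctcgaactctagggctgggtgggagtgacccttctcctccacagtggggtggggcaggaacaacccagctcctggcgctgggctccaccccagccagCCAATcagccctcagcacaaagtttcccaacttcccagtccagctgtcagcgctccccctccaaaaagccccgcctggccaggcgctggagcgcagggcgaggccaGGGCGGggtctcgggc
COL12A1: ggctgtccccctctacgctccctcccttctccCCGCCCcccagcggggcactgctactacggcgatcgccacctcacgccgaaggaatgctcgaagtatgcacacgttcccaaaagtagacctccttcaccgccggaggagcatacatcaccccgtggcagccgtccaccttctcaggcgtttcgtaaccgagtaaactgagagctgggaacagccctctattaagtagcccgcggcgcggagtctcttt
HSPG2: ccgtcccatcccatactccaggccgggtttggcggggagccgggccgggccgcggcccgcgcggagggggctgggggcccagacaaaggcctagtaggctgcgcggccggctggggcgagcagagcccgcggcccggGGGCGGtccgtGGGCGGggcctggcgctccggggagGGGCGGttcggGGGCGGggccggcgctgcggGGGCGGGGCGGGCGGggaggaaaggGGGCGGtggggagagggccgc
COL7A1: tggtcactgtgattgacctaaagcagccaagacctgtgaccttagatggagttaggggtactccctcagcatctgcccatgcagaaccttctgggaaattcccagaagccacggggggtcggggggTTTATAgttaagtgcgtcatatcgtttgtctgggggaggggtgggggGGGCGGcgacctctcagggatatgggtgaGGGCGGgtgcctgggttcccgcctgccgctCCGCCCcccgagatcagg
COL4A5: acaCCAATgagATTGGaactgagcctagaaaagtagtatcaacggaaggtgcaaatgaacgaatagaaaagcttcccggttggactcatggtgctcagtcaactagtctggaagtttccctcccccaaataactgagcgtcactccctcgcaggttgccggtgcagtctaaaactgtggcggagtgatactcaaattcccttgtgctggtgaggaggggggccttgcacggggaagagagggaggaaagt

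The windows differed in base content, from 51.2% G or C in COL4A5 to 82.8% in HSPG2. HSPG2 held 8 GC box matches, COL7A1 held 3 with 1 TATA match, COL5A3 held 1 CCAAT and 1 GC box, COL12A1 held 1 GC box and COL4A5 held 2 CCAAT matches. A RefSeq window of 300 bases (250 before and 50 after the start) was found for 37 of the 51 genes, 49 windows in all. Among these, TATAAA was present in 18.4% (11.5% of all 35116 windows), CCAAT in 30.6% (34.6%), GGGCGG in 57.1% (45.0%) and TGANTCA in 2.04% (7.71%). A match describes letters only, and no match says nothing of a factor.

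Collagen VI, which forms beaded filaments around cells, behaved differently between its chains. COL6A3 (minus strand, chr2:237324003-237414375) had 145, 302 and 886 counts. It was 2.09 times control in YA (1.71 to 2.56), 7.28 times in OA (6.10 to 8.74) and 0.287 of OA in YA (0.251 to 0.327), the largest ratio of OA to control among the 32 genes. COL6A1 had 6789, 8248 and 5739 counts and COL6A2 had 2378, 3195 and 2071. Against control, YA was 1.22 times for COL6A1 (1.18 to 1.26) and 1.35 times for COL6A2 (1.28 to 1.42), and OA passed 1.2-fold for neither. Per length, COL6A2 stayed at 0.429, 0.474 and 0.442 of COL6A1, while COL6A3 was at 0.0084, 0.0144 and 0.0609 of COL6A1. COL6A3 was thus the scarcest of these 3 chains in every library, and the distance was smallest in OA.

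**Figure D3:**
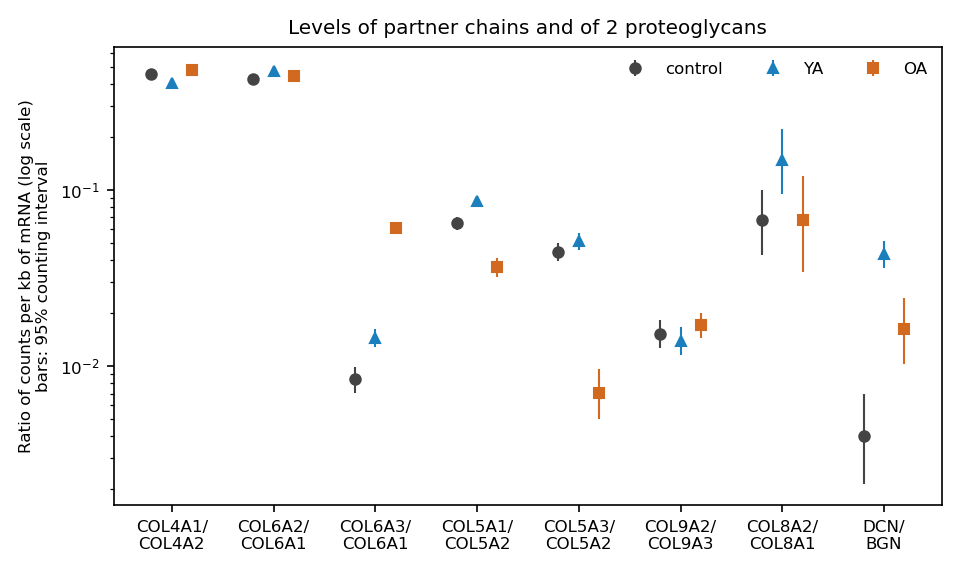
Ratio of partner chains, and of DCN to BGN, in counts per kb of mRNA on a log axis, with 1 point per library and bars for the 95% counting interval. COL4A1 to COL4A2 and COL6A2 to COL6A1 lie between 0.404 and 0.482 in all 3 libraries, while COL6A3 to COL6A1 is highest in OA and COL5A3 to COL5A2 lowest in OA.

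Among fibril-associated collagens, COL9A3, a chain of cartilage collagen IX, had 6609, 7304 and 7580 counts, and OA was 1.37 times control (1.32 to 1.41). Its partner COL9A2 had 116, 117 and 149 counts, 1.53 times control in OA (1.19 to 1.97), and COL9A1 had 3, 5 and 3. Per length, COL9A2 stood at 0.0153, 0.0140 and 0.0172 of COL9A3. COL12A1, which sits on collagen I fibrils, had 3588, 2737 and 1666 counts and was 0.765 of control in YA (0.728 to 0.804) and 0.553 in OA (0.522 to 0.586). COL16A1 had 334, 487 and 359 counts, 1.46 times control in YA (1.27 to 1.69) and 1.28 times in OA (1.10 to 1.49). COL19A1 had 852, 950 and 276 counts, with OA at 0.386 of control (0.336 to 0.443) and YA at 2.90 times OA (2.53 to 3.33). Of these 5 genes, 1 was called higher and 1 lower than control in YA, and 3 higher and 2 lower in OA. Over all genes tested the shares were 17.4% higher and 16.4% lower in YA, and 21.1% and 21.5% in OA. COL12A1 was called lower in both libraries and COL16A1 higher in both. In OA alone, COL9A3 and COL9A2 were called higher and COL19A1 lower.

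Network-forming and anchoring collagens had few counts. COL7A1, which builds the anchoring fibrils that join epidermis to dermis, had 194, 285 and 160 counts, 1.47 times control in YA (1.22 to 1.78). COL8A1, a chain of the collagen VIII network of vessel walls and the cornea, had 454, 223 and 216 counts, at 0.493 of control in YA (0.418 to 0.580) and 0.567 in OA (0.480 to 0.668), so it was lower in both. Its partner COL8A2 had 25, 27 and 12 counts.

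The transmembrane collagens COL13A1 and COL17A1, which sit at cell adhesions and in hemidesmosomes respectively, were called higher in OA. COL13A1 (plus strand, chr10:69801867-69964275) had 1237, 751 and 1451 counts. It was 0.609 of control in YA (0.555 to 0.667), 1.40 times in OA (1.29 to 1.51), and YA was 0.436 of OA (0.399 to 0.476), the 1 gene of the 32 called lower in YA and higher in OA. COL17A1 had 32, 29 and 86 counts, 3.20 times control in OA (2.11 to 4.97) and near control in YA, with YA at 0.284 of OA (0.180 to 0.437). Over the 25 other collagens, 13 passed the minimum. Against control, 5 of these were higher and 3 lower in YA and 6 higher and 4 lower in OA. YA had 6 higher and 5 lower than OA. Medians were 0.15, 0.05 and 0.19. COL8A2, which passed the minimum only through the YA library, is among the 6 called higher in YA than in OA. The matching shares of all genes tested were 17.4% and 16.4%, 21.1% and 21.5%, and 23.0% and 21.5%.

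COL4A2, COL4A4, COL27A1 and COL5A2 were called in neither comparison with control.

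Other lists are read against the shares of all genes tested, which were 17.4% higher and 16.4% lower in YA, 21.1% and 21.5% in OA, and 23.0% and 21.5% in YA against OA. Of the genes that modify, fold and process collagen, 28 of 35 were tested, and 6 were higher and 5 lower in YA, 9 higher and 4 lower in OA, and 4 higher and 9 lower in YA against OA, with medians of 0.02, 0.04 and -0.06. LOXL4, a lysyl oxidase relative that crosslinks collagen, had 20693, 12829 and 5564 counts, 0.622 of control in YA and 0.320 in OA. Its relatives LOXL3 (4792, 7351 and 3321) and LOXL2 (3781, 3653 and 5582) had their highest counts in YA and OA respectively. LOXL3 shares 19.3% of its exon bases with DOK1 and HTRA2, so part of its counts may depend on how shared reads were assigned. P4HA2, a prolyl hydroxylase subunit, had 783, 1033 and 1230 counts, and P3H2, another prolyl hydroxylase, had 141, 63 and 51.

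For the enzymes that build glycosaminoglycan chains, 36 of 42 were tested, and 1 was higher and 14 lower in YA, 12 higher and 11 lower in OA, and 4 higher and 16 lower in YA against OA. The share of all genes called lower was 16.4% in YA, 21.5% in OA and 21.5% in YA against OA. By the interval rule, 3 of the 14 lower in YA and 6 of the 11 lower in OA were left. So were 12 of the 16 lower in YA against OA. That rule called 4.44%, 9.08% and 9.03% of all genes tested lower in these comparisons. Medians over the list were -0.21, 0.02 and -0.22. CHST11, a chondroitin sulfotransferase, had 1217, 828 and 1778 counts and DSE, an epimerase that makes dermatan sulfate, had 122, 108 and 239, and both were lowest in YA. HS3ST1, a heparan sulfate sulfotransferase, had 274, 145 and 77 counts, its relative HS3ST3A1 had 429, 350 and 742, and SULF2, which removes sulfate from heparan sulfate, had 4308, 3850 and 1707. CHST3, another chondroitin sulfotransferase, was the 1 enzyme called higher in YA, with 933, 1358 and 1111 counts.

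Among the collagen receptors, ITGA10 and ITGA1 differed in opposite directions. ITGA10, an integrin chain that binds collagen, had 876, 3204 and 312 counts, and YA was 3.67 times control (3.40 to 3.96) and 8.65 times OA (7.70 to 9.74). ITGA1 went the other way, with 3175, 1632 and 5209 counts, and ITGA2 with 1963, 1504 and 2553 was also highest in OA. ITGA11 had 62, 23 and 6 counts. Of 10 receptors tested (12 listed), 3 were higher and 3 lower in YA, 3 higher and 3 lower in OA, and 4 higher and 4 lower in YA against OA, with medians of -0.08, 0.17 and -0.02.

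Other proteoglycan core proteins numbered 17 tested of 28 listed, with 3 higher and 8 lower in YA, 7 higher and 6 lower in OA, and 7 higher and 8 lower in YA against OA, and medians of -0.09, -0.01 and 0.07. CSPG4, a melanoma-associated surface proteoglycan, had 19441, 29002 and 16208 counts, and the glypican GPC1 had 1274, 2131 and 1050. Another glypican, GPC4, had 105, 86 and 7 counts, and the syndecan SDC2 had 910, 571 and 194. The cartilage proteoglycan ACAN had 106, 174 and 43 counts and SRGN, which sits in secretory granules, had 41, 48 and 103. Normalised counts of CSPG4, GPC1, GPC4, SDC2 and ACAN were lowest in OA, where CSPG4 and GPC1 were within 1.2-fold of control, and SRGN was highest in OA.

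Glycoproteins bound to collagen or fibrils numbered 18 tested of 28 found in the data, and 7 were higher and 3 lower in YA, 2 higher and 6 lower in OA, and 10 higher and 4 lower in YA against OA, with medians of 0.16, -0.11 and 0.40. All genes tested were called higher in 17.4%, 21.1% and 23.0% and lower in 16.4%, 21.5% and 21.5% of cases, and the share lower in YA was thus near that of all genes. FN1, the cell-binding glycoprotein fibronectin, had 3553, 5167 and 1620 counts, and YA was 2.69 times OA (2.54 to 2.84). FBN2, a microfibril protein, had 18, 46 and 5 counts, and EFEMP2, which serves elastic fibre assembly, had 170, 259 and 142. EFEMP1, its relative, had 462, 344 and 155 counts. TGFBI, a collagen-binding adhesion protein, had 2914, 2595 and 6139 counts and had the highest ratio of OA to control among the 18 tested, at 2.51 (2.40 to 2.62).

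**Figure D4:**
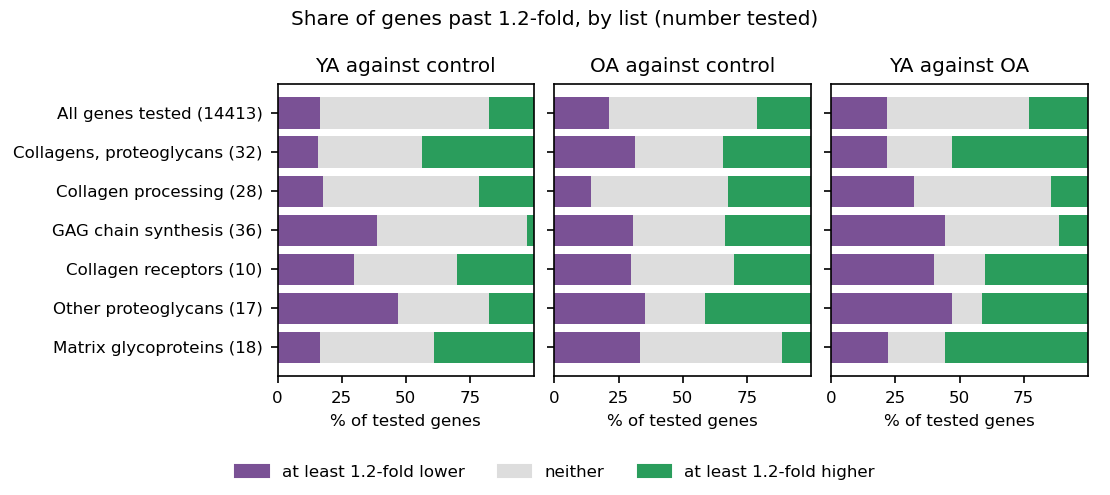
Percent of tested genes called at least 1.2-fold higher or lower in each comparison, for all 14413 genes and for each list, with the number tested in brackets. The collagens and proteoglycans are called higher in 43.8% of genes in YA against control and in 53.1% in YA against OA, while glycosaminoglycan synthesis genes are called lower more often than higher in those comparisons.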

How the data were processed

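RNA sequencing counts of 3 A375 libraries were used. The authors deposited whole-number counts per gene, with an Ensembl identifier, a symbol and a biotype. The submitters' processing notes name hg38, STAR 2.5.1b, featureCounts and R 3.6.1. The annotation release and the strand setting are not given in the sources used here. Counts were scaled by DESeq2 1.42.0 median-of-ratios size factors (1.06, 1.06 and 0.891 for control, YA and OA) in R 4.3.3, with edgeR 4.0.16 TMM factors as an alternative. Calls and log2 ratios used log2((a + 1)/(b + 1)), with a minimum mean normalised count of 20 and a threshold of 1.2-fold. The threshold was read from the cutoff of the study's methods as a linear fold. Ratios printed with intervals, and those intervals, were taken without the added 1. With 1 library per group no model was fitted. Python 3.11.15 with scipy 1.17.1 gave the intervals.

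Gene positions and mRNA lengths (the transcript with the longest coding sequence, or the longest transcript where these tied) came from GENCODE 29. All 51 identifiers matched it. Levels of different genes were compared per length, while shares of counts are not corrected for it. The genes and lists (collagen processing, glycosaminoglycan synthesis, receptors, other proteoglycans, glycoproteins and the markers of other cell types) were chosen with earlier results of these data known. Each gene past the minimum is named with its counts. Intervals were set to be given for the proteoglycans and for 5 genes on either side of each comparison, ranked by interval bound, and are also printed for other genes of the 32. Up to 3 genes per other list and comparison are named, ranked by the bound nearest 1. The steps were tested on simulated data. Other scalings, filters, folds and pseudocounts were tried.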

Additional observations from a re-analysis of the deposited data

Results flagged for a closer look

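COL13A1 was noted because YA and OA lay on opposite sides of control, with both counting intervals wholly beyond 1.2-fold. COL5A1 was also called on opposite sides, but its YA interval (1.12 to 1.39) reached below 1.2. COL13A1 had 751, 1451 and 1237 counts in YA, OA and control. Its log2 ratio of YA to OA was -1.20. The difference was not tested, since each group had 1 library and both share the control.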

How the results depend on the processing

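With TMM or total-count scaling, or a pseudocount of 5, the numbers of collagen and proteoglycan genes called were the same as in the report, and no called value changed sign (COL6A1 in OA against control, called in neither setting, went from 0.010 to -0.0035 on the log2 scale under TMM). Without a minimum count, 49 genes were compared, and YA against control had 23 higher and 11 lower, OA against control 18 lower, and YA against OA 28 higher. With a minimum mean of 100, which left 23 genes, YA against control had 3 lower and YA against OA had 11 higher, with a median log2 ratio of 0.19 in the latter. At 2-fold, YA against control had 2 higher and 1 lower and OA against control 4 higher and 4 lower. YA against OA had 7 higher and 4 lower. The shares of all genes under these filters and at 2-fold are not given, so these numbers have no background beside them. By the interval rule, 6 were higher in YA (18.8%, against 6.03% of all genes tested) and 7 in OA (21.9%, against 9.04%), each against control. The stricter rules count fewer genes by construction. The interval rule was run with the main scaling alone. With exon-union lengths, chosen after seeing the data, the ratio of COL4A1 to COL4A2 was 0.612, 0.538 and 0.643 in control, YA and OA, and COL4A2 ranked 4 of the genes per length in place of 2. No paired analysis was possible because each group had 1 library. No replicate error could be measured, and counting intervals were wide for genes with few counts, such as COL4A6, COL8A2 and DCN in control.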
